A study of Mus musculus with 14 samples.

Results

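The expression of 10 genes that carry out or control necroptosis and pyroptosis, 2 lytic forms of programmed cell death, was measured in mouse kidneys after renal ischemia/reperfusion injury (IRI). The genes were taken by their symbols from a list of the core machinery, and all 10 were found among the 24411 genes of the count tables. IRI, in which the blood supply of the kidney is interrupted and then restored, is a standard model of acute kidney injury (AKI). The study profiled total RNA of whole kidneys from male C57/B6 mice aged 8 weeks, with 4 libraries at day 0, 5 at day 1 and 5 at day 3 after IRI. No other treatment, transgene or genotype was given for any of these groups, and all 14 libraries were prepared from TRIzol-extracted RNA with an Illumina TruSeq kit. The labels do not state that each library came from a separate mouse, so the p-values below measure only the spread between these libraries, which may be technical.

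Necroptosis starts when the kinase Ripk1, or the nucleic acid sensor Zbp1, engages the kinase Ripk3 through a shared interaction motif. Ripk3 then phosphorylates Mlkl, the pseudokinase that oligomerizes and permeabilizes the plasma membrane, while the protease Casp8 holds this route in check and can start apoptosis instead. In pyroptosis, the sensor Nlrp3 assembles with the adaptor Pycard (also called ASC) and activates Casp1, or Casp4 (the mouse gene for caspase-11) is activated by intracellular lipopolysaccharide, and either caspase cleaves Gsdmd into a pore-forming fragment. Both routes are known to operate in injured kidney, in tubular epithelium and in infiltrating leukocytes. Transcript levels show how much mRNA was present and not whether a kinase, caspase or pore was active.

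The libraries held 12485579 to 20476979 reads assigned to genes, and each value below is in CPM, that is counts scaled to the same library total of assigned reads, with totals adjusted by the trimmed mean of M values. Kidney identity was clear in all groups, since the summed level of 10 proximal tubule markers was 46100 to 50700 CPM at day 0, 20300 to 50300 CPM at day 1 and 10400 to 23800 CPM at day 3. Most of this sum was Kap at day 0 and day 1, at 26800 to 31100 and 15200 to 32600 CPM. The numbers in the deposited library names come in 2 formats that the labels do not explain. All day 0 libraries, replicates 3, 4 and 5 of day 1 and replicates 4 and 5 of day 3 carry a 1-digit number, whereas replicates 1 and 2 of day 1 and replicates 1, 2 and 3 of day 3 carry a 3-digit number. This format is treated here as a possible batch, and because no day 0 library carries a 3-digit number, the format of those libraries and the day cannot be told apart in a comparison with day 0.

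Read numbers set how firmly each gene could be measured. Ripk1 and Casp8 had 545 to 1045 and 658 to 2675 reads per library. Nlrp3 had 3 to 40 reads, Zbp1 2 to 30 and Casp1 13 to 35 reads, so single-library values of these genes carry large counting error. Ripk3 had 8 to 24 reads and Mlkl 13 to 18 reads per library at day 0. By the annotation (GENCODE M21, assembly GRCm38, which is mm10), exons of Ripk1 overlap 241 bases of Serpinb6a on the opposite strand and 511 bases of the pseudogene Gm17084 on the same strand, and exons of Pycard overlap 485 bases of Gm45205 on the opposite strand. The counts used here are stranded, so reads of opposite genes were kept apart. The annotation behind the counts is not given, so whether reads in the pseudogene overlap were counted for Ripk1 is not known. In GENCODE M21, the exons of the other 8 genes overlap no other gene.

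The promoter windows of Mlkl, Ripk3, Casp8 and Casp4 are shown because these 4 genes were higher than day 0 at both later days. Each runs from 250 bases before to 50 bases after a transcription start in RefSeq (GRCm38.p6), 5′ to 3′ on the gene's strand, and capitals mark matches to the NF-kB consensus on either strand. The windows are chr8:111338156-111338455 (minus strand) for Mlkl, chr14:55788808-55789107 (minus strand) for Ripk3, chr1:58802252-58802551 (plus strand) for Casp8 and chr9:5308599-5308898 (plus strand) for Casp4.
Mlkl: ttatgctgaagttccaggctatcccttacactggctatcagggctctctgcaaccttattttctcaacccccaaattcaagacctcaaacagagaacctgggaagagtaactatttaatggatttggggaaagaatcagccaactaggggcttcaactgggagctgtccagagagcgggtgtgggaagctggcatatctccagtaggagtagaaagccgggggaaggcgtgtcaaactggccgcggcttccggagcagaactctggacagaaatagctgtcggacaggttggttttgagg
Ripk3: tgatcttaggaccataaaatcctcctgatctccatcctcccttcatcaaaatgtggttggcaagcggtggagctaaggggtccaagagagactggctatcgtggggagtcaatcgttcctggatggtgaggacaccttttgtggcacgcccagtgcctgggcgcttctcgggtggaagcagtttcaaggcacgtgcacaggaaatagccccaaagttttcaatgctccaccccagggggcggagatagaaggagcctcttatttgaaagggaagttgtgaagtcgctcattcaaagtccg
Casp8: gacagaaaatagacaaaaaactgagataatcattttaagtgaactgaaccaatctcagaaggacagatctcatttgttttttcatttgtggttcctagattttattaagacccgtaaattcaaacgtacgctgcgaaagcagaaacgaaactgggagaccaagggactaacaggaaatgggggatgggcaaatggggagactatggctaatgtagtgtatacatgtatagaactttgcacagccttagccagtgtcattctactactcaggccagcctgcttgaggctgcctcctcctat
Casp4: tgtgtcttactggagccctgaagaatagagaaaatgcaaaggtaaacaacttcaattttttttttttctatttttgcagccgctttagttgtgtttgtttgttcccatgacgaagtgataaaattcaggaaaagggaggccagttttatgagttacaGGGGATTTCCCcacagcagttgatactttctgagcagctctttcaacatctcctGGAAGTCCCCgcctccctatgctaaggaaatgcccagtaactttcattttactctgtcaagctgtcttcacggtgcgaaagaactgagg
Of the 4 windows, only that of Casp4 held NF-kB consensus matches, and 8.46% of 32851 mouse promoter windows of the same length hold at least 1. The Casp4 matches begin 93, 92 and 39 bases before the start, and the first and second overlap. Neither an ISRE-like motif (GAAA, any 2 bases, GAAA) nor a GAS-like motif (TTC, any 3 bases, GAA), read on both strands, was present in these 4 windows, and these letters occur in 3.44% and 8.3% of all windows. Windows were found for 8 of the 10 genes, and Gsdmd and Zbp1 had none in the table used. Among the other 4 genes, Ripk1 had an ISRE-like match that overlaps a GAS-like match, in 1 of its 2 windows, and Nlrp3 had an NF-kB match in 1 of its 2 windows. The Ripk1 windows held 22 and 36 CpG dinucleotides, whereas those of the other 7 genes held 3 to 10, and the median of all windows is 7. A match is a description of the letters only, and its absence says nothing about binding.

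Levels between genes were compared per kilobase of annotated exon. The length was the union over all annotated transcripts of a gene, for example 8344 bases for Ripk1 and 3800 for Pycard. The order below holds for these lengths only, since lengths of single transcripts were not tried. At day 0, Casp8 stood highest at 15.2 ± 0.908 CPM per kb (SD, n = 4), followed by Ripk1 at 5.26 ± 0.184 and Gsdmd at 1.34 ± 0.228 CPM per kb. The ranges of these 3 genes did not overlap each other or those of the genes below them. Casp1 (0.692 ± 0.15) and Pycard (0.668 ± 0.0917 CPM per kb) overlapped each other. Below them, Mlkl (0.43 ± 0.069), Casp4 (0.376 ± 0.103) and Ripk3 (0.355 ± 0.193 CPM per kb) could not be ordered beyond their spread, and Zbp1 (0.2 ± 0.0643) and Nlrp3 (0.0842 ± 0.0349 CPM per kb) had the lowest means. Ripk3 overlapped Casp1, Pycard and Zbp1, Casp4 overlapped Casp1, and Zbp1 overlapped Nlrp3. The executioner Mlkl was the sixth gene in this order at day 0, and at day 1 it stood second at 7.36 ± 4.83 CPM per kb (n = 5). Its day 1 range of 2.49 to 14.7 overlapped those of Ripk1 (5.5 to 7.16), Ripk3 (1.25 to 3.09) and Casp4 (0.973 to 2.52). Ripk3 reached 2.33 ± 0.816 CPM per kb at day 1 and 3.21 ± 0.897 at day 3, above the means of all 5 pyroptosis genes at these days, though its range overlapped those of Gsdmd, Casp4 and Pycard at day 1 and those of Gsdmd and Pycard at day 3.

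**Figure D1:**
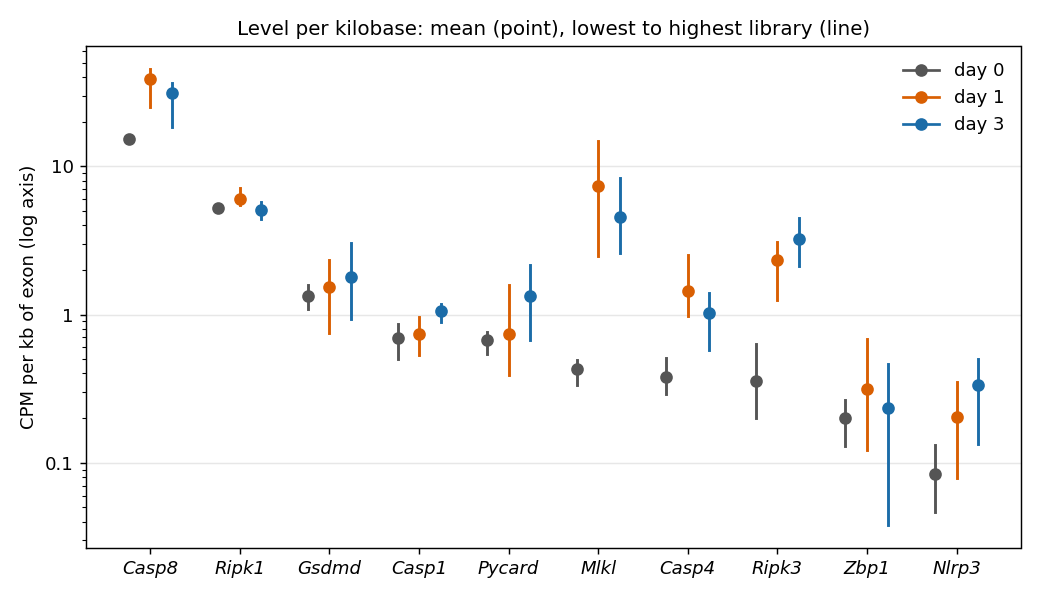
Level of each gene per kilobase of exon (CPM per kb, log axis) at day 0 (gray, 4 libraries), day 1 (orange, 5) and day 3 (blue, 5); points are means and lines run from the lowest to the highest library. Mlkl moved from a mean of 0.43 at day 0 to 7.36 at day 1, while Ripk1 stayed between 4.39 and 7.16 CPM per kb in all libraries.

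The first question was which of these genes differed between injured and day 0 kidneys. At day 1, Mlkl, Ripk3, Casp8 and Casp4 rose, that is 4 of the 10 genes, where 42.1% of all 14300 genes tested were called, 23.3% higher and 18.7% lower. At day 3, the same 4 genes and Nlrp3 rose, that is 5 of 10, where 33.3% of all genes were called, 19.5% higher and 13.8% lower. None of the 10 fell at either day. The median log2 fold change of the 10 genes was 0.92 at day 1 and 1.01 at day 3, against 0.01 and 0.05 over all genes tested. Among the 5 necroptosis genes 3 rose at each day, and among the 5 pyroptosis genes 1 rose at day 1 and 2 at day 3. A gene was called when the edgeR quasi-likelihood test gave a Benjamini-Hochberg adjusted p under 0.05 over all genes. Both comparisons use the same 4 day 0 libraries, so their values are given side by side and not as independent evidence. In whole kidney RNA, a change in the number of cells of a type and a change in RNA per cell cannot be told apart.

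**Figure D2:**
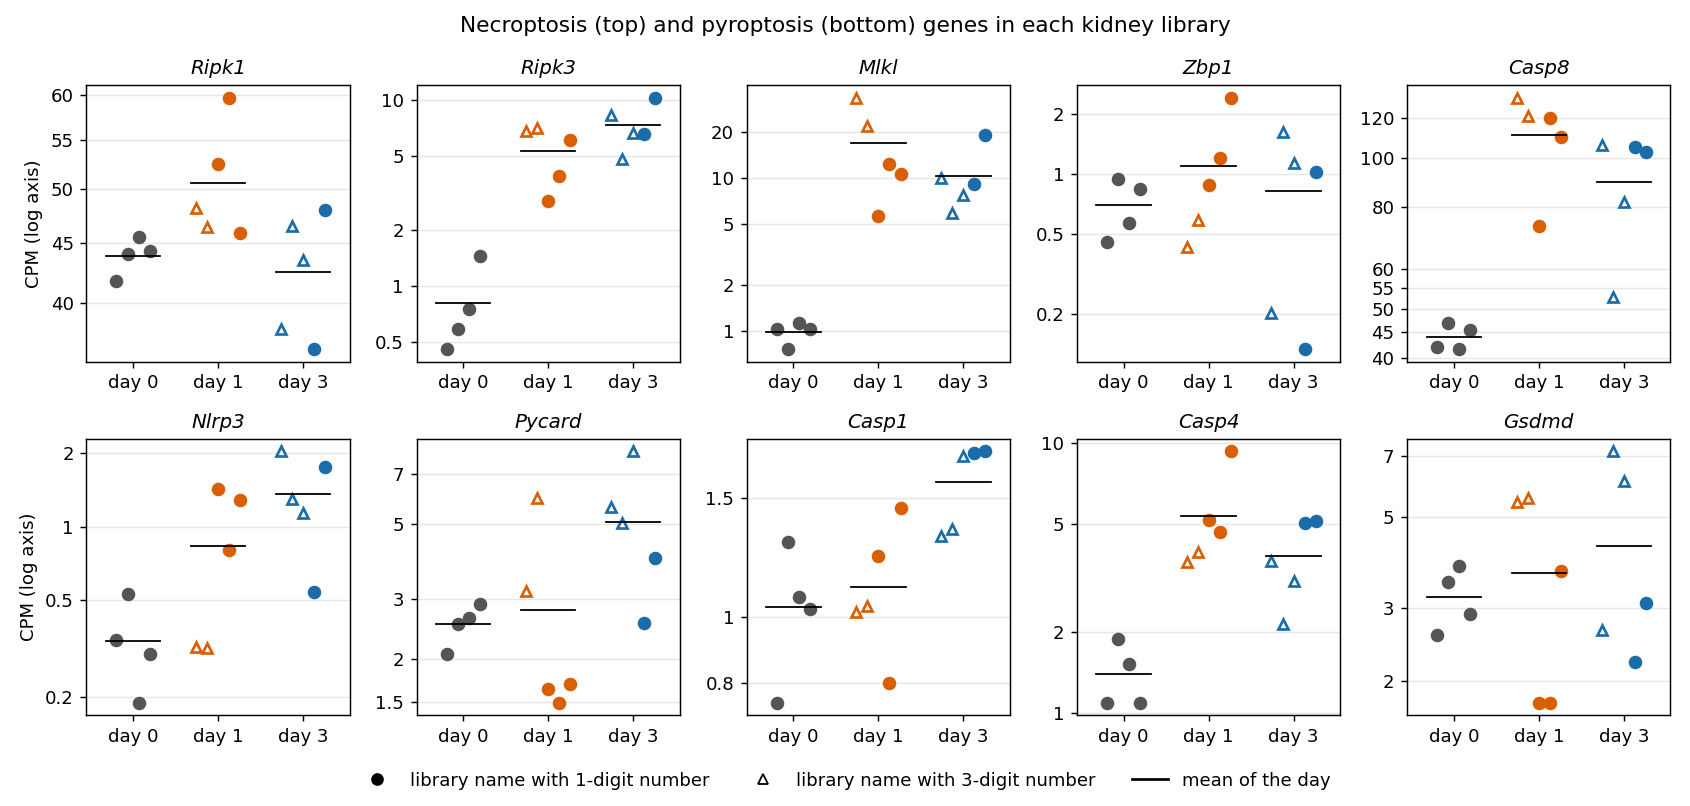
CPM (log axis, a separate scale for each gene) of the 5 necroptosis genes (top) and the 5 pyroptosis genes (bottom) in all 14 libraries at day 0, day 1 and day 3; filled circles are libraries with a 1-digit number, open triangles those with a 3-digit number, and bars are means. All day 1 and day 3 libraries lie above all day 0 libraries for Ripk3, Mlkl, Casp8 and Casp4.

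Of the upstream kinases, Ripk1 was nearly level. It measured 41.8, 44, 45.5 and 44.3 CPM in the 4 day 0 libraries, 48.2, 46.4, 52.5, 59.7 and 45.9 CPM in the 5 day 1 libraries and 38.1, 46.5, 43.5, 36.6 and 48 CPM in the 5 day 3 libraries. The lowest day 1 library stood just above the highest day 0 library, and the day 3 values lay on both sides of day 0. The change did not pass the test at day 1 (log2 fold change 0.20, 95% interval -0.05 to 0.45, adjusted p = 0.174) or at day 3 (-0.05, -0.30 to 0.20, adjusted p = 0.785). These intervals are the narrowest among the 10 genes at both days.

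Ripk3, the kinase that activates Mlkl, had 0.46, 0.588, 0.758 and 1.45 CPM at day 0. It had 6.79, 7.09, 2.86, 3.89 and 6.11 CPM at day 1 and 8.35, 4.84, 6.68, 6.59 and 10.3 CPM at day 3. The lowest injured library was above the highest day 0 library. Ripk3 rose 6.54-fold at day 1 (log2 2.71 ± 0.39 SE, adjusted p = 0.000209) and 8.96-fold at day 3 (log2 3.16 ± 0.40, adjusted p = 0.000118).

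Mlkl, the membrane-permeabilizing effector, had the highest fold change of the 10 genes in the pooled fit at both days. Its values were 1.04, 0.765, 1.14 and 1.03 CPM at day 0, 33.8, 22, 5.72, 12.5 and 10.7 CPM at day 1 and 10.1, 5.97, 7.77, 9.21 and 19.1 CPM at day 3. All injured libraries exceeded all day 0 libraries, and the day 1 values were the most spread, from replicate 3 at the bottom to replicate 1 at the top. The rise was 17-fold at day 1 (log2 4.09 ± 0.53 SE, adjusted p = 8.24e-05) and 10.4-fold at day 3 (log2 3.38 ± 0.51, adjusted p = 0.000384), where it and Ripk3 lay within their errors of each other.

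Zbp1, the interferon-inducible sensor that can engage Ripk3 without Ripk1, stayed low. It had 0.46, 0.942, 0.569 and 0.847 CPM at day 0, 0.431, 0.59, 0.886, 1.2 and 2.41 CPM at day 1 and 0.204, 1.63, 1.14, 0.134 and 1.03 CPM at day 3. The 3 days overlapped fully. The differences did not pass the test, with wide intervals at day 1 (log2 0.62, 95% interval -0.78 to 2.01, adjusted p = 0.462) and day 3 (0.23, -1.16 to 1.63, adjusted p = 0.803).

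Casp8, the protease that cleaves Ripk1 and Ripk3, was the most abundant gene per kilobase and the one whose rise was measured with the most reads. It had 42, 47, 41.6 and 45.4 CPM at day 0, 132, 121, 73.3, 120 and 110 CPM at day 1 and 106, 52.9, 81.8, 105 and 103 CPM at day 3. Replicate 3 of day 1 and replicate 2 of day 3 were the lowest injured libraries and were still above day 0. The rise was 2.53-fold at day 1 (log2 1.34 ± 0.21 SE, adjusted p = 0.000311) and 2.04-fold at day 3 (log2 1.03 ± 0.21, adjusted p = 0.00228).

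Among the pyroptosis genes, the sensor Nlrp3 was the least abundant. It had 0.345, 0.53, 0.19 and 0.302 CPM at day 0, 0.323, 0.318, 1.43, 0.8 and 1.29 CPM at day 1 and 2.04, 1.3, 1.14, 0.538 and 1.76 CPM at day 3. At day 1, replicates 1 and 2 lay within the day 0 range and replicates 3, 4 and 5 above it. The pooled day 1 difference did not pass the test (log2 1.23 ± 0.55 SE, adjusted p = 0.086), whereas it did with a term for the number format (1.38, adjusted p = 0.0478), with the 1-digit libraries of days 1 and 3 alone (1.77, adjusted p = 0.0108) and without replicate 2 of day 1 (1.45, adjusted p = 0.0407). At day 3, all libraries exceeded the highest day 0 library, the lowest of them narrowly, and Nlrp3 rose 3.89-fold (log2 1.96 ± 0.55, adjusted p = 0.0146). Without replicate 3 of day 0, which had 3 reads, the day 3 call was lost (log2 1.77, adjusted p = 0.051).

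Pycard, the adaptor that links sensor and caspase, had 2.07, 2.53, 2.65 and 2.9 CPM at day 0, 3.18, 5.95, 1.64, 1.49 and 1.69 CPM at day 1 and 5.6, 5.01, 8.17, 2.56 and 3.97 CPM at day 3. At day 1, replicates 1 and 2 were above the day 0 range and replicates 3, 4 and 5 below it. The pooled difference was 0.15 on the log2 scale at day 1 (adjusted p = 0.799) and 1.00 at day 3 (95% interval 0.08 to 1.91, adjusted p = 0.0859). The day 3 difference was called in a fit of days 0 and 3 alone (log2 0.98, adjusted p = 0.0371), with the 3-digit libraries of days 1 and 3 alone (1.30, adjusted p = 0.00678) and without replicate 2 of day 1 (1.00, adjusted p = 0.0347), whereas a term for the number format gave log2 0.19 (adjusted p = 0.61).

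Casp1, the caspase that matures interleukin-1β, had 0.748, 1.29, 1.07 and 1.03 CPM at day 0, 1.02, 1.04, 1.23, 0.8 and 1.45 CPM at day 1 and 1.32, 1.35, 1.73, 1.75 and 1.76 CPM at day 3. The day 3 libraries lay just above the highest day 0 library, and the day 1 libraries overlapped day 0. The test was not passed at day 1 (log2 0.09, 95% interval -0.50 to 0.68, adjusted p = 0.811) or day 3 (0.61, 0.02 to 1.19, adjusted p = 0.101).

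Casp4, which starts the non-canonical route, had 1.09, 1.88, 1.52 and 1.09 CPM at day 0. It had 3.61, 3.95, 5.18, 4.69 and 9.33 CPM at day 1 and 3.66, 2.14, 3.07, 5.04 and 5.14 CPM at day 3. No injured library overlapped day 0. Casp4 rose 3.81-fold at day 1 (log2 1.93 ± 0.36 SE, adjusted p = 0.00109) and 2.72-fold at day 3 (log2 1.44 ± 0.36, adjusted p = 0.00768).

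Gsdmd, the pore-forming substrate of both caspases, had 2.59, 3.47, 3.79 and 2.9 CPM at day 0, 5.44, 5.54, 1.77, 1.77 and 3.7 CPM at day 1 and 2.65, 7.21, 6.09, 2.22 and 3.09 CPM at day 3. Injured libraries lay both above and below the day 0 range at both days. Its pooled differences were 0.20 at day 1 (95% interval -0.72 to 1.12, adjusted p = 0.731) and 0.42 at day 3 (-0.50 to 1.34, adjusted p = 0.469) on the log2 scale.

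**Figure D3:**
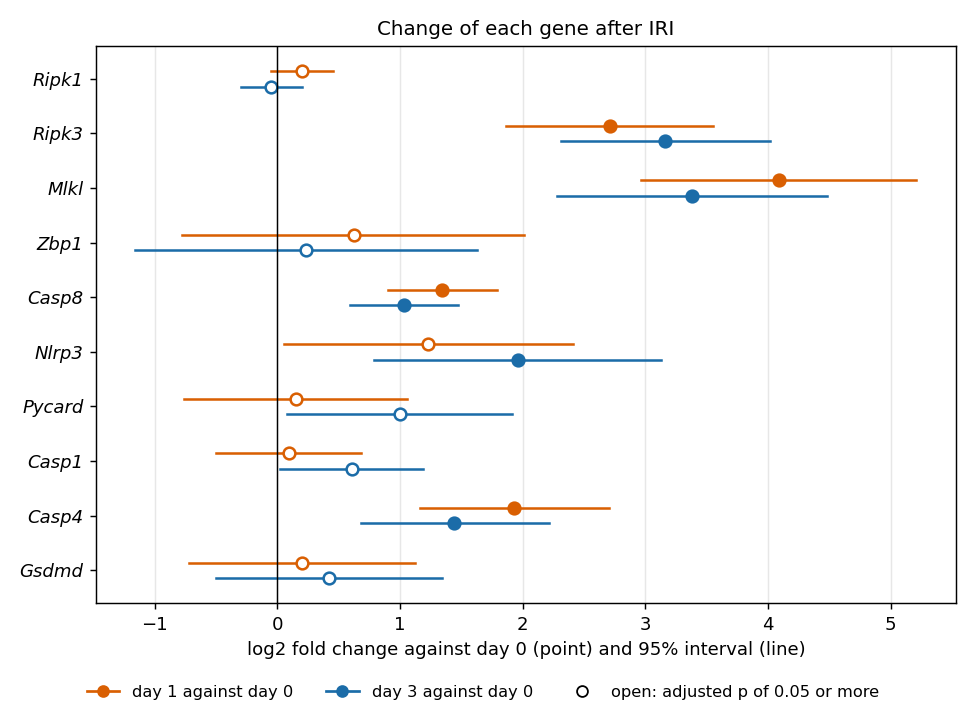
Log2 fold change of the 10 genes at day 1 (orange) and day 3 (blue) against day 0 with its 95% interval; filled points have an adjusted p under 0.05 in the edgeR quasi-likelihood test. Mlkl lies furthest right at both days (4.09 and 3.38), and the intervals of Ripk1 are the narrowest.

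By lack of overlap alone, 5 of the 10 genes (Ripk1, Ripk3, Mlkl, Casp8 and Casp4) were higher in all day 1 libraries than in all day 0 libraries, where 21.5% of all genes tested were. At day 3 it was 6 of 10 (Ripk3, Mlkl, Casp8, Nlrp3, Casp1 and Casp4), where 16.9% of all genes were. No gene of the 10 was lower in all libraries of either day, where 20.5% and 16.5% of all genes were.

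The second question was whether the levels moved between day 1 and day 3. None of the 10 genes was called by the edgeR quasi-likelihood test, where 15.9% of all genes were, and DESeq2 also called 0, where it called 23.1% of all genes. At an unadjusted p under 0.05 there were 2 of the 10, Ripk1 and Pycard, where 32% of all genes were. Ripk1 was 0.25 lower at day 3 on the log2 scale (95% interval -0.48 to -0.01, adjusted p = 0.135) and Pycard 0.85 higher (0.00 to 1.70, adjusted p = 0.156). The intervals of the others admit sizeable movement, for example -1.58 to 0.17 for Mlkl and -0.24 to 1.15 for Ripk3. Within the number formats, the same comparison gave other calls, 2 of the 10 genes in the 3-digit libraries, where 16% of all genes were called, and 1 in the 1-digit libraries, where 36% were. In the 3-digit libraries alone, Mlkl was lower at day 3 (log2 -1.81, adjusted p = 0.00357) and Nlrp3 higher (2.19, adjusted p = 0.0193), whereas in the 1-digit libraries Mlkl differed by 0.54 (adjusted p = 0.255) and Nlrp3 by -0.04 (adjusted p = 0.959). Pycard was higher at day 3 in the 1-digit libraries (log2 1.01, adjusted p = 0.0256) and differed by 0.45 in the 3-digit libraries (adjusted p = 0.383). Without replicate 2 of day 1, Pycard was also called (log2 1.34, adjusted p = 0.0157).

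The third question was whether libraries of one day differed with the number format, which was tested in a fit with 5 groups and 14804 genes. At day 1, 4 of the 10 genes differed between the 2 3-digit and the 3 1-digit libraries, where 34.1% of all genes did, 18.1% higher and 16% lower in the 3-digit libraries. In the former Mlkl had 33.8 and 22 CPM and in the latter 5.72, 12.5 and 10.7 CPM, without overlap, and was 2.9-fold higher with 3-digit numbers (log2 1.53 ± 0.35 SE, adjusted p = 0.0055). Pycard was also higher there (log2 1.51 ± 0.33, adjusted p = 0.00468), as was Gsdmd (1.20 ± 0.41, adjusted p = 0.0389). Nlrp3 was lower there, at 0.323 and 0.318 against 0.8 to 1.43 CPM (log2 -1.84 ± 0.59, adjusted p = 0.0289). Leaving out replicate 1 or 2 of day 1 leaves 1 library in the 3-digit arm, which is then assumed to vary like the other groups. The Mlkl call was lost without replicate 1 of day 1 (adjusted p = 0.0603), the Pycard call without replicate 2 (0.104), the Gsdmd call without replicate 2 of day 0 or without replicate 1, 2, 3 or 4 of day 1 (highest 0.149), and the Nlrp3 call without replicate 1, 2, 3 or 5 of day 1 (highest 0.158). Ripk1, Casp1 and Casp8 moved little with the format at day 1 (log2 -0.16, -0.15 and 0.32, none called), though the formats of Casp8 narrowly did not overlap. The formats did not overlap either for Ripk3, at 6.79 and 7.09 CPM (3-digit) against 2.86 to 6.11 CPM (1-digit). The same held for Casp4 (3.61 and 3.95 against 4.69 to 9.33 CPM) and Zbp1 (0.431 and 0.59 against 0.886 to 2.41 CPM). Ripk3, Casp4 and Zbp1 were not called.

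At day 3, none of the 10 genes was called between the 3 3-digit and the 2 1-digit libraries by the edgeR quasi-likelihood test, where 17.8% of all genes were. At an unadjusted p under 0.05 there were 4 (Mlkl, Pycard, Casp4 and Gsdmd), where 35.2% of all genes were, and DESeq2 called 1, Pycard, where it called 24.8% of all genes. Pycard had 5.6, 5.01 and 8.17 CPM in the 3-digit libraries and 2.56 and 3.97 CPM in the 1-digit libraries, without overlap (log2 0.95, 95% interval 0.22 to 1.67, adjusted p = 0.0654). Mlkl had the opposite sign to day 1, at 10.1, 5.97 and 7.77 CPM in the 3-digit and 9.21 and 19.1 CPM in the 1-digit libraries (log2 -0.83, -1.59 to -0.06, adjusted p = 0.116). The difference between the format effects of the 2 days was tested directly, and Mlkl was the only gene of the 10 that passed (log2 -2.36 ± 0.50 SE, adjusted p = 0.00718), where 17% of all genes did and 8.17% with the same sign. For Nlrp3 this difference was 2.22 on the log2 scale and did not pass (adjusted p = 0.0682), and over the alternatives tried it ranged from 1.6 to 3.29. Without replicate 1 of day 3, Casp8 also passed this test (adjusted p = 0.0428).

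**Figure D4:**
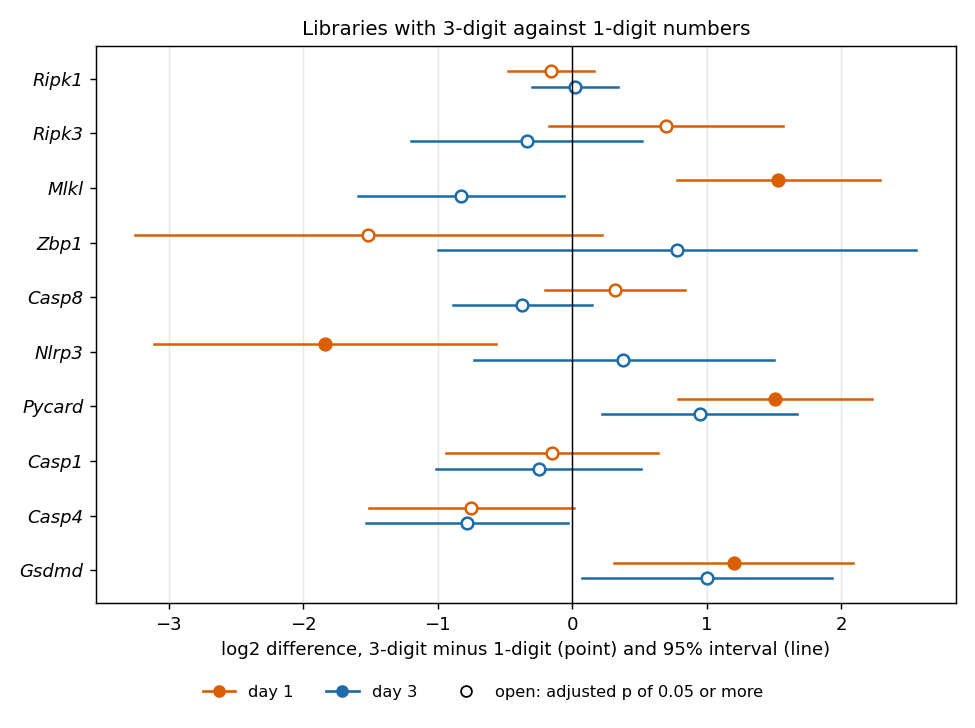
Log2 difference between libraries with 3-digit and 1-digit numbers within day 1 (orange) and within day 3 (blue), with 95% intervals, for the 10 genes; filled points have an adjusted p under 0.05. Mlkl lies at 1.53 at day 1 and at -0.83 at day 3, whereas Pycard and Gsdmd lie to the right of 0 at both days.

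Measured against day 0 within each format, Ripk3, Mlkl, Casp8 and Casp4 were called higher in all 4 sets of injured libraries. In the 1-digit libraries of day 1, 5 of the 10 genes were called, the fifth being Nlrp3 (log2 1.74, adjusted p = 0.00697), where 57.4% of all genes were called in either direction and 28.5% higher. In the 3-digit libraries of day 1, 5 were called, with Pycard in its place (log2 0.85, adjusted p = 0.0391), where 40.7% were called and 22.3% higher. In the 1-digit libraries of day 3, 5 were called, again with Nlrp3 (log2 1.71, adjusted p = 0.0152), where 52.6% were called and 28% higher. In the 3-digit libraries of day 3, 6 were called, with Nlrp3 (log2 2.10, adjusted p = 0.00425) and Pycard (log2 1.30, adjusted p = 0.00309), where 31.8% were called and 18.9% higher. The log2 rise of Mlkl over day 0 was 4.81, or 28-fold, in the 3-digit libraries of day 1 (adjusted p = 3.08e-06) and 3.00 to 3.82 in the other 3 sets. That of Ripk3 was 2.38 to 3.36 over the 4 sets, with 3.02 beside the 3.00 of Mlkl in the 3-digit libraries of day 3, that of Casp8 0.87 to 1.53 and that of Casp4 1.08 to 2.19. The calls that left-out libraries removed were those of Casp4 in the 3-digit libraries of day 3 (without replicate 1 of day 0 or replicate 1 or 3 of day 3, highest adjusted p = 0.0711), of Nlrp3 in the 1-digit libraries of day 3 (without replicate 5, adjusted p = 0.483, which leaves 1 library assumed to vary like the other groups) and of Pycard in the 3-digit libraries of day 1 (without replicate 1, 2 or 3 of day 0 or replicate 2 of day 1, the last leaving 1 library in the same way, highest adjusted p = 0.535). That Pycard call was also lost with no filter on low counts (log2 0.82, adjusted p = 0.0573). Left-out libraries also added calls, of Pycard lower (without replicate 1 of day 1, adjusted p = 0.0448) and Ripk1 higher (without replicate 5 of day 1, 0.0395) in the 1-digit libraries of day 1, and of Gsdmd higher with 3-digit numbers at day 3 (0.0225) and at day 1 (0.05 after rounding), both without replicate 1 of day 3. Ripk1 was also called in the 1-digit libraries of day 1 with unstranded counts (0.0433), and Casp1 in the 1-digit libraries of day 3 with at least 10 counts in every library (0.0434).

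Several lists of cell type and injury markers moved with these genes. Summed markers of tubular injury (6 genes) were 233 to 313 CPM at day 0, 2120 to 7060 CPM at day 1 and 1780 to 6240 CPM at day 3, and 5 of 6 rose at each day. At day 1 their sum was 6860 and 7060 CPM in the 3-digit libraries, where Mlkl was highest, and 2120 to 4260 CPM in the 1-digit libraries. At day 3 it was 1780 to 4380 CPM in the 3-digit libraries and 4660 to 6240 CPM in the 1-digit libraries. Lcn2, the injury marker NGAL, made up much of the day 3 difference, at 2060, 66.1 and 681 CPM in the 3-digit and 2670 and 3400 CPM in the 1-digit libraries. Between the formats 1 of the 6 markers was called higher in the 3-digit libraries at day 1 and 1 lower at day 3, and the median log2 difference of the 6 was 0.03 and -0.22. The marker called at day 1 was Havcr1, the injury molecule KIM-1, at 1860 and 3010 CPM in the 3-digit and 30.5, 151 and 45.8 CPM in the 1-digit libraries, so the order of the sums at either day cannot be read as one of the list. Havcr1 had 89.8 to 119 CPM at day 0, so among the 1-digit libraries of day 1 only replicate 4 stood above day 0.

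Summed myeloid markers (14 genes) were 159 to 263 CPM at day 0, 192 to 396 CPM at day 1 and 263 to 603 CPM at day 3, with 6 higher and 1 lower at day 1 and 9 higher and 1 lower at day 3. By format they were 372 to 396 CPM (3-digit) against 192 to 275 CPM (1-digit) at day 1 and 405 to 603 against 263 to 324 CPM at day 3. Much of the day 1 difference was Cd14, at 220 and 186 CPM (3-digit) against 54.3, 110 and 114 CPM (1-digit). Between formats, 1 of the 14 was called higher and 1 lower in the 3-digit libraries at day 1, and 4 higher and 1 lower at day 3. A large part of the day 3 sum was Lyz2, the lysozyme of macrophages and granulocytes, at 150, 153 and 303 CPM in the 3-digit and 46.5 and 25.6 CPM in the 1-digit libraries. At that day Cd68 was lower in the 3-digit libraries (16.4, 10.1 and 18.1 against 24.6 and 45.5 CPM) and Cd14 overlapped between the formats. Summed neutrophil markers (8 of 9 in the tables) went from 1.81 to 2.42 CPM at day 0 to 51 to 214 CPM at day 1 and 20.7 to 442 CPM at day 3, with 6 of 7 tested higher at each day, and Camp had no read at day 0. By format they were 52.7 to 94.9 CPM (3-digit) against 51 to 214 CPM (1-digit) at day 1, with a median log2 difference of -0.82, and 20.7 to 138 against 74 to 442 CPM at day 3, with 2 of 8 called lower in the 3-digit libraries and a median of -1.9. Nlrp3, Casp1, Casp4, Pycard and Gsdmd are also expressed by leukocytes. Lymphocyte markers summed to at most 2.12 CPM in any library, and 0 of 9 had enough reads for the fit over days (1, Cd79a, in the fit by number format, where it was not called against day 0). Markers of fibroblasts and pericytes were higher in 2 of 7 genes at day 1 and 5 of 7 at day 3, and 4 of 10 proximal tubule markers were lower at each day. Of 8 urothelium markers, Krt20, which the tubular injury list also holds, was higher at both days (log2 9.68 and 8.35), and Upk2 was lower at day 3 (log2 -4.44, adjusted p = 0.0233).

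These lists also differed with the number format, and in some the difference changed sign between the days, as it did for Mlkl. Proximal tubule markers summed to 20300 to 31400 CPM (3-digit) against 38400 to 50300 CPM (1-digit) at day 1, with 4 of 10 called lower in the former, and to 11500 to 23800 against 10400 to 13000 CPM at day 3, with 4 called higher. Most of the day 1 sums was Kap, at 25200 and 15200 CPM (3-digit) against 32600, 26700 and 30200 CPM (1-digit). Fibroblast and pericyte markers summed to 334 to 443 against 145 to 195 CPM at day 1 (3 of 7 higher) and to 525 to 1040 against 621 to 1150 CPM at day 3 (2 lower). Of the urothelium markers, whose sum was mostly Krt20 and is not given, 3 of 8 were higher at day 1 with a median log2 difference of 3.64, and 1 was lower at day 3. In the test of the format effect of day 3 minus that of day 1, which called 17% of all genes, 6 of 10 proximal tubule markers were higher (median 2.73), and 4 of 7 fibroblast and pericyte (-1.84), 4 of 7 endothelium (-1.29) and 1 of 8 urothelium markers (-3.72) were lower. The part of these lists in the changes of the 10 genes was not tested.

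Genes around this machinery were counted in 6 lists. Of the death receptor and Ripk1 complex list, 6 of 15 genes tested rose at day 1 and 7 at day 3, and none fell. The receptor Tnfrsf1a, through which Tnf recruits Ripk1, went from 48.2 ± 1.65 CPM at day 0 (SD, n = 4) to 125 ± 20.6 at day 1 (n = 5) and 97.9 ± 31.3 CPM at day 3 (n = 5), and was called at both days (log2 1.37 and 1.02). Birc3, a ubiquitin ligase of Ripk1, rose 5.13-fold and 3.68-fold, and Tnfaip3, the ubiquitin-editing enzyme A20, rose 5.04-fold and 2.69-fold. At day 1 Tnfaip3 had 18.5 and 16.6 CPM with 3-digit numbers against 45.5, 36.5 and 38.8 CPM with 1-digit numbers. The death receptor Tnfrsf10b rose 3.45-fold and 2.33-fold. In the pooled days, Fas was called at day 1 alone (log2 0.83, adjusted p = 0.0353, against 0.54 and 0.168 at day 3), a difference between days that was not called (adjusted p = 0.491). With 3-digit numbers Fas had 9.54 and 8.99 CPM at day 1, near the 7.2 to 8.97 CPM of day 0. With 1-digit numbers it had 16.1, 18.5 and 19.4 CPM at day 1. Tnf itself had a mean of 0.149 CPM at day 0, 0.603 at day 1 and 0.869 CPM at day 3 and was called at day 3 (log2 2.48, adjusted p = 0.027). Neither the adaptor Fadd (log2 -0.73 and -0.70, adjusted p = 0.145 and 0.181) nor the Casp8 inhibitor Cflar (0.40 and 0.35, adjusted p = 0.104 and 0.168) was called in the pooled days. Cflar was called higher in the 1-digit libraries of day 1 (log2 0.62, adjusted p = 0.00326) and day 3 (0.51, adjusted p = 0.0219).

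Fadd differed with the number format at day 1. At day 0 it had 15.1 to 21.5 CPM, and at day 1 it had 14.4 and 21 CPM with 3-digit numbers but 7.16, 5.2 and 5.39 CPM with 1-digit numbers. Against day 0 it fell in the 1-digit libraries of day 1 (log2 -1.58, adjusted p = 0.000192) and of day 3 (-1.17, adjusted p = 0.00455), and was not called in the 3-digit libraries of day 1 (0.00, adjusted p = 0.999) or day 3 (-0.46, adjusted p = 0.16). The format difference itself was called at day 1 (log2 1.58, adjusted p = 0.00159) and not at day 3 (0.71, 95% interval 0.07 to 1.35, adjusted p = 0.109), where the formats overlapped at 7.79, 15.8 and 15.1 CPM (3-digit) against 8.41 and 7.42 CPM (1-digit).

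Of the other inflammasome sensors and cofactors, 4 of 10 tested rose and 1 fell at day 1, and 5 rose and 2 fell at day 3. The ATP-gated channel P2rx7, a trigger of Nlrp3, rose 2.17-fold and 2.35-fold, while the sensor Nlrc4 fell by 1.09 and 1.75 on the log2 scale. Txnip, which binds Nlrp3, rose 1.97-fold at day 1 and 2.21-fold at day 3. In the 3-digit libraries of day 1 taken alone, P2rx7 (1.44-fold, adjusted p = 0.169), Txnip (1.38-fold, 0.238) and Nlrc4 (log2 -1.05, 0.0512) were not called. Nlrp6 was called lower at day 3 (log2 -1.79, adjusted p = 0.0488), from 105 ± 11.3 CPM at day 0 to 30.3 ± 26.4 CPM. At day 1 its pooled log2 difference was -1.61 (adjusted p = 0.0615) with all libraries below day 0, and it was called lower in both formats of day 1 (log2 -3.39 with 3-digit numbers, adjusted p = 0.000113, and -1.04 with 1-digit numbers, adjusted p = 0.0168). The DNA sensor Aim2 was not called in the pooled days (log2 0.52 and 0.59, adjusted p = 0.242 and 0.203).

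Of the other gasdermins, membrane rupture genes and inflammasome cytokines, 2 of 7 tested rose at each day, where 4 of the 11 in the list had too few reads. Il1b, the cytokine that Casp1 matures, went from 0.715 ± 0.2 CPM to 5.37 ± 2.6 and 5.99 ± 5.39 CPM (log2 2.89 and 3.05, adjusted p = 0.00347 and 0.00345). Il18, the other Casp1 substrate cytokine, was not called (log2 0.53 and 0.02, adjusted p = 0.0799 and 0.96). Gsdma had 1 read in the 4 day 0 libraries together, 0.162, 0.409, 0.75, 0.743 and 1.69 CPM at day 1 and 1.12, 0.0563, 0.099, 2.42 and 6.54 CPM at day 3, and was called at both days (adjusted p = 0.0236 and 0.00677); no fold is given against 1 read, and it was not called in the 3-digit libraries of day 1 (adjusted p = 0.0576). Gsdme (log2 0.23 and 0.23) and Ninj1, the mediator of plasma membrane rupture (0.35 and 0.03), were not called in the pooled days. At day 1 both differed with the number format. Gsdme had 6.47 to 8.84 CPM at day 0, and at day 1 it reached 11.3 and 16.2 CPM with 3-digit numbers against 6.47, 5.09 and 5.87 CPM with 1-digit numbers (format difference log2 1.24, adjusted p = 0.00131), and only the 3-digit libraries were called against day 0 (0.84, adjusted p = 0.00531). Ninj1 had 98 to 110 CPM at day 0, and at day 1 it was 87.5 and 79.6 CPM with 3-digit numbers against 159, 208 and 140 CPM with 1-digit numbers (format difference -1.01, adjusted p = 0.0043), and only the 1-digit libraries were called (0.68, adjusted p = 0.00525).

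The ESCRT machinery, which removes damaged plasma membrane, had 7 of 12 genes higher at each day and none lower, the largest share of the 6 lists in the pooled days. Chmp4b rose 2.47-fold and 1.83-fold, Chmp4c 2.10-fold and 1.88-fold, the calcium sensor Pdcd6 1.99-fold and 1.42-fold, and Chmp1a 1.33-fold and 1.55-fold. In the 3-digit libraries taken alone, Chmp4c was not called at day 1 (1.43-fold, adjusted p = 0.0539), nor Chmp4b at day 3 (1.38-fold, 0.0743). The 12 genes were also split by format at day 3, where 7 were lower in the 3-digit libraries, and against day 0 the 1-digit libraries of day 3 gave 11 higher, where 28% of all genes were, and the 3-digit libraries 3, where 18.9% were. In the latter, 7 of 12 other inflammasome sensors and cofactors, 10 of 23 apoptosis genes and 6 of 15 death receptor genes were higher, so the ESCRT list did not have the largest share there. Of the apoptosis machinery, 9 of 23 rose and 1 fell at day 1, and 7 rose and 1 fell at day 3. The pore-forming Bak1 rose 3.46-fold and 3.23-fold, the anti-apoptotic Bcl2l1 3.78-fold and 2.04-fold, and Pmaip1 4.40-fold at day 1. Pmaip1 differed with the number format at day 1 (log2 -2.07, adjusted p = 0.000305), at 21.8 and 31.7 CPM with 3-digit numbers against 134, 74.8 and 128 CPM, and in the former it was 1.51-fold over day 0 and not called (adjusted p = 0.0612). The anti-apoptotic Bcl2a1b rose 2.52-fold at day 1 and 6.71-fold at day 3 (adjusted p = 0.0424 and 0.00122). Both values are uncertain, since its reads can be shared with near-identical Bcl2a1 copies. The BH3-only gene Bmf rose 2.22-fold at day 3 (adjusted p = 0.0126).

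Interferon response genes, the class to which Zbp1 belongs, had 3 of 16 higher at day 1 and 2 at day 3, and none lower. Gbp2 rose 2.53-fold and 2.48-fold and Irf1 1.99-fold and 1.56-fold, and Isg15 rose 3.56-fold at day 1. Isg15 had 3.07, 4.18, 5.86, 6.69 and 17.8 CPM at day 1, replicate 5 being far above the others, and was not called in the 3-digit libraries (1.73-fold, adjusted p = 0.283). Irf1 was not called in the 1-digit libraries of day 3 (1.24-fold, adjusted p = 0.303). In the fit by number format, 8 were higher and 1 lower in the 1-digit libraries of day 1 against day 0, where 57.4% of all genes were called, and 2 were higher and 1 lower in the 3-digit libraries, where 40.7% were.

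**Figure D5:**
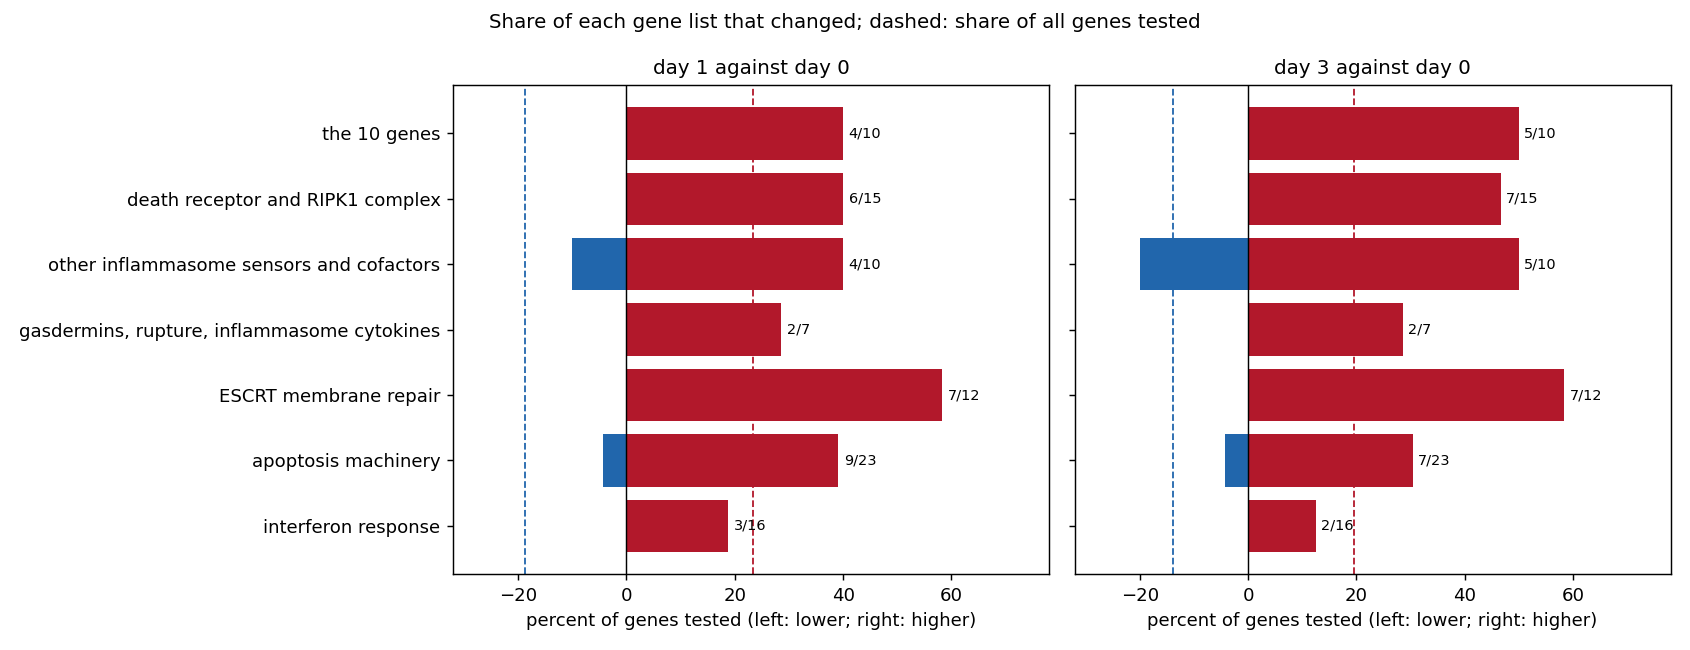
Percent of the tested genes of each list that were called higher (red, right of 0) or lower (blue, left of 0) at day 1 and day 3 against day 0, with the number higher of the number tested beside each bar; dashed lines are the shares over all genes tested (23.3% and 18.7% at day 1, 19.5% and 13.8% at day 3). The ESCRT list has the longest bar at both days (7/12), and the interferon list lies left of the dashed line for higher genes at both days.

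The genes whose pattern over the 14 libraries lay nearest to each of the 10 were found by the root mean square difference of mean-centred log2 CPM over 14300 genes. The nearest to Mlkl were Akap12 at 0.37, Cd68 at 0.42 and Smpdl3b at 0.43. Nearest to Ripk3 were Arhgef4 (0.35), Cd276 (0.38) and Plp2 (0.41). Tnfrsf1a was the nearest to Casp8 at 0.16, followed by Bzw2 (0.18) and Ddx39 (0.19). Csrp1 (0.26), Socs2 (0.31) and Il6ra (0.31) were nearest to Casp4. For Zbp1 they were Rtp4 (0.30), Ifi44 (0.40) and Ifit3 (0.43), and for Nlrp3 Hmha1 (0.40), Gpr132 (0.44) and Myo1g (0.45). The values for Ripk1 (0.09 for Nelfb and Wiz) and Casp1 (0.20 for Snrnp25) reflect flat patterns, for which many genes lie close, and the nearest to Pycard and Gsdmd were Rab13 (0.24) and Cdk4 (0.29). Within the 10 genes, the closest pair was Casp1 with Ripk1 (0.44), followed by Casp4 with Casp8 (0.47).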

How the data were processed

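The authors deposited 1 STAR gene count table per library (14 in all). Reads had been trimmed with Trimmomatic and aligned to mm10 by STAR per the labels' processing notes, with versions and annotation not given in the sources used here. The deposited values are raw counts per gene in an unstranded and 2 stranded columns. The fourth column was used, which held 98.5% to 98.7% of stranded gene reads. Reads assigned to no gene (29% to 38.3%) were left out of library sizes.

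The 10 genes and all lists were chosen with earlier results of these data known. Counts were filtered with filterByExpr, scaled by TMM and tested with the quasi-likelihood test of edgeR 4.0.16 (R 4.3.3) in 1 fit over the 3 days (14300 genes) and 1 fit with days 1 and 3 divided by number format (14804 genes), with Benjamini-Hochberg adjustment over all genes. SE is the absolute log2 fold change over the root of F. The scripts were tested on simulated data. DESeq2 1.42.0 and other alternatives are given in the closing section. Text names all 10 genes, a set of partners (some of which are not reported here), for each list and day up to 3 called genes of largest change with a mean of at least 1 CPM, and the nearest genes by pattern. Lengths are union exons of GENCODE M21. Replicates of a group differed by a chi-square per degree of freedom of 5.96 to 242 over 26 pairs, so none was counted as a repeat. The marker Ly6g was not matched and Gsdme was matched under an older symbol.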

Additional observations from a re-analysis of the deposited data

Results flagged for a closer look

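Mlkl differed between days 1 and 3 in how its level moved with the number format of the library names. The difference of the 2 effects, 3-digit against 1-digit libraries at day 3 minus that at day 1, was -2.36 on the log2 scale by the edgeR quasi-likelihood test (adjusted p = 0.00718). Mlkl was higher in the 3-digit libraries at day 1, in 2 of 2 libraries above all 3 of the 1-digit format. At day 3 the 3-digit mean was lower but the formats overlapped. Over the alternatives tried, this difference ranged from -2.79 to -1.75 with adjusted p from 0.000493 to 0.0433. In the same test, 6 of 10 proximal tubule markers were higher and 4 of 7 fibroblast and pericyte and 4 of 7 endothelium markers lower, and their part in the Mlkl difference was not tested. A test for single outlying libraries in 30 groups of 4 or 5 found none, where chance alone would give about 1.5. Its outcome depends on the scale of the values. In CPM, replicate 5 of day 1 stood apart for Casp4, at 9.33 against 3.61 to 5.18 CPM in the other day 1 libraries.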

How the results depend on the processing

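The fits were repeated with unstranded counts, with RLE or total-count scaling, with no filter or at least 10 counts in every library, with DESeq2, a fold threshold, a format term or fewer libraries, and without each library. The number of the 10 genes called was 3 to 5 at day 1 and 3 to 6 at day 3 against day 0, and none reversed. Over all genes, calls at day 1 ranged from 2963 of 14300 (fold threshold) to 8839 of 14430 (1-digit libraries alone). At day 3 they ranged from 2597 of 14300 to 8119 of 14430 in the same settings. Ripk3, where tested, Mlkl, Casp8 and Casp4 kept their call at both days in all alternatives without a fold threshold. With at least 10 counts in every library, 3 were called at day 3 and 3 in the 1-digit libraries of day 1, of 7 still tested. Between days 3 and 1, the 1-digit libraries gave 1 call (36% of all genes), the 3-digit libraries 2 (16%), and leaving out 1 library 0 to 1 (1 without replicate 2 of day 1). Between formats at day 1, leaving out 1 library gave 1 to 4 calls (1 without replicate 1 or 2 of day 1, 2 without replicate 3). At day 3, at least 10 counts gave 1, DESeq2 1, and leaving out 1 library 0 to 2 (2 without replicate 1, 1 without replicate 4). For the difference of formats, leaving out 1 library gave 1 to 2 (2 without replicate 1 or 5 of day 3). Without replicate 1 or 2 of day 1, or 4 or 5 of day 3, a format arm has 1 library, which is assumed to vary like the other groups. Apart from the filter, which tested fewer genes, the cause was not tested. Total-count scaling moved the median of all genes by 0.14 at day 3. Same-numbered replicates were not paired (correlations of deviations -0.17 to 0.26). With the replicate block 4, 5 and 0 of the 10 genes were called for day 1, day 3 and day 3 against day 1, as without it. Over all 14300 genes, the block gave 5162, 4103 and 2044 calls, against 6020, 4757 and 2276 without it. Read numbers were low for Nlrp3, Zbp1 and Casp1 at all days, and for Ripk3 and Mlkl at day 0.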
